A study of Caenorhabditis elegans with 2 samples.

Results

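Vitellogenin genes encode the yolk proteins of Caenorhabditis elegans, and vit-1 to vit-6 were the 6 genes examined, out of 19973 protein-coding genes on the nuclear chromosomes. They were taken by name, and the measure was where regions listed from ChIP-seq of the tagged corepressor protein RCOR-1 lay along them. Listing alone does not show that a region is bound. Each gene was read from 2000 bp upstream of its 5′ end, called the promoter here, to its annotated end, called the gene body. The data were 2 biological replicates of ChIP-seq from whole young adult worms, both of 1 strain, at 65 hours, with growth synchronised by starving L1 larvae after bleaching. In that strain a CRISPR insertion put TY1, EGFP and 3xFLAG tags on rcor-1 at its own locus, and the tagged protein was pulled down with anti-GFP antibody. There was no second genotype, stage or treatment, so no comparison between conditions was possible and no test was made. The labels point to a control experiment, which was not analysed here.

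Yolk proteins are made in the intestine of the adult hermaphrodite, secreted into the body cavity and taken up by growing oocytes through the receptor RME-2. The products of vit-1 to vit-5 are large yolk polypeptides, and that of vit-6 is cleaved into a pair of smaller ones. In adults these genes are among the most strongly transcribed of the intestine, under GATA factors such as ELT-2, the Meis-type factor UNC-62 and other regulators that bind short elements close upstream of each gene. RCOR-1 belongs to the CoREST family, whose members join histone demethylases of the LSD1 type with histone deacetylases. Intestinal cells are a small share of the cells of a whole worm by number, and their share of the chromatin was not measured. In whole animals fewer cells with a bound site and less binding per cell cannot be told apart.

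The files were lists of regions scored by the irreproducible discovery rate (IDR), which ranks regions by how well they recur between a pair of inputs, so that a lower value means better recurrence. A conservative list held 2344 regions, made between the replicates at an IDR of 0.01 or less. The ranked list behind it held 45103 candidate regions, of which 2410 had an IDR of 0.01 or less. Each replicate also had lists of its own, with 1550 thresholded and 37733 ranked regions in replicate 1, and 1482 thresholded and 32427 ranked regions in replicate 2. Signals are the authors' values and are on the scale of their own list, so each is given here with its percentile among all regions of the same ranked list. The files hold no read counts, and the depth behind a region is unknown.

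The genes vit-1 to vit-5 are X-linked copies of related sequence, and vit-6 is autosomal. In the ce11 genome, vit-1 lies at chrX:7727889-7733168 on the plus strand, vit-2 at chrX:5101042-5106169 on the plus strand, and vit-5 at chrX:3403471-3408603 on the plus strand. Their X-linked relatives vit-3 (chrX:3567355-3572549) and vit-4 (chrX:3558769-3563965) are on the minus strand and lie next to each other. The vit-6 gene is at chrIV:8261157-8266459 on the plus strand. The genes are 5128 to 5303 bp long, with 4809 to 4953 bases of coding sequence in 5 or 6 exons, so that 93.1% of their bases are coding.

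The promoters are shown for vit-1, the gene with the strongest candidate region close to its 5′ end, for the adjacent copies vit-3 and vit-4, and for vit-6. Each runs from 250 bases before the 5′ end to 50 bases from it, read 5′ to 3′ on the strand of the gene, from the RefSeq ce11 assembly. Capitals mark TGTCAAT and TGATAA (with a preceding C where that is present) on either strand.
vit-1 promoter, chrX:7727639-7727938, plus strand: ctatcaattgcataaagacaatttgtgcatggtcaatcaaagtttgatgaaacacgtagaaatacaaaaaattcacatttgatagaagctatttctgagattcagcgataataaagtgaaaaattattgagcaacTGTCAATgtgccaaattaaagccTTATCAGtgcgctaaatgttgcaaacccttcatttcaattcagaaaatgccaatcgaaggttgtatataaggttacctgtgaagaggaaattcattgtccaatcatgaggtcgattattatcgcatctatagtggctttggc
vit-3 promoter, chrX:3572500-3572799, minus strand: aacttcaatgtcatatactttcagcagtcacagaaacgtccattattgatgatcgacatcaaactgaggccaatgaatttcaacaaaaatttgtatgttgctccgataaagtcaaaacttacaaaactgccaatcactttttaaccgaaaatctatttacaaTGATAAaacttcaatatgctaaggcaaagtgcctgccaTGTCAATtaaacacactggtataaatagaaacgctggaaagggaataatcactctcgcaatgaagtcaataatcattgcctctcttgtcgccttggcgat
vit-4 promoter, chrX:3563916-3564215, minus strand: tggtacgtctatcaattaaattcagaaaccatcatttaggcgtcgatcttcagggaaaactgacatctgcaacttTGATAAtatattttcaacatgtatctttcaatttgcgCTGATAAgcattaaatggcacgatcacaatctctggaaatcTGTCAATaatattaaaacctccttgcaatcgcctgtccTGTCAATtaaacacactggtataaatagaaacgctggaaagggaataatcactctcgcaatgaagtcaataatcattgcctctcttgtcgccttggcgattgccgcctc
vit-6 promoter, chrIV:8260907-8261206, plus strand: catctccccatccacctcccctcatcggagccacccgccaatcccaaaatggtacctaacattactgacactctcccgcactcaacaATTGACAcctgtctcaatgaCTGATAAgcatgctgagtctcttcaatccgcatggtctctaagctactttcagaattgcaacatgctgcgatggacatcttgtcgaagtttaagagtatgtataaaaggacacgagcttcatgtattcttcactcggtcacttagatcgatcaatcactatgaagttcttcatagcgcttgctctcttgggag

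TGTCAAT, known as vitellogenin promoter element 1, was in 6 of 6 vit promoters of this length and in 5.77% of all 19973 promoters. CTGATAA, element 2, was in 5 of 6 against 8.15% of all promoters, and vit-3 was the gene without it. The shorter GATA core TGATAA, which every CTGATAA contains, was in 6 of 6 against 30.2%. The Meis-type core TGACAG was in 3 of 6 (vit-1, vit-4 and vit-5) against 9.68%, and in vit-1 and vit-4 it overlapped TGTCAAT on the opposite strand. The forkhead site TGTTTAC was in 0 of 6 against 4.77%. Both strands were searched, and these matches describe letters, not bound sites. Elements 1 and 2 are named for vitellogenin promoters, so their shares here are no test of enrichment. Within these promoter windows, vit-3 and vit-4 shared an unbroken run of 100 identical bases. The run reached the last base of the vit-3 window, so its full length was not measured. It began at −50 in vit-3 and −59 in vit-4 and crossed the start of the coding sequence. A TGTCAAT opens this run in both genes, so these copies are not separate occurrences. No other pair of vit promoters shared a run of more than 31 bases within the windows. The 31-base runs of vit-5 with vit-3 and with vit-4 also ended at a window edge.

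The start of the coding sequence shows how alike the X-linked copies are. The first 90 coding bases are given for vit-5, vit-3, vit-4 and vit-2, with capitals at every base that differs from vit-5.
vit-5, chrX:3403481-3403570, plus strand: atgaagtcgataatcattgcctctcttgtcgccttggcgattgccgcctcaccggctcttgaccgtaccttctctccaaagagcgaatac
vit-3, chrX:3572451-3572540, minus strand: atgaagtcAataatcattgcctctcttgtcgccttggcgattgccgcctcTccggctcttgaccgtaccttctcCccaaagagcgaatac
vit-4, chrX:3563876-3563965, minus strand: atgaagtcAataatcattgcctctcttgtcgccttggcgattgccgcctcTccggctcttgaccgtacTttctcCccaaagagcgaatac
vit-2, chrX:5101043-5101132, plus strand: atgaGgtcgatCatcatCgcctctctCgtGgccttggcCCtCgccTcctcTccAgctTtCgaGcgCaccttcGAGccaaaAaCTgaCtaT
In these bases vit-3 differed from vit-5 at 3 positions, vit-4 at 4 and vit-2 at 23. Over the whole coding sequence vit-3 and vit-4 were 99.0% identical, and vit-5 was 97.7% identical to vit-3 and 97.8% to vit-4. The vit-1 and vit-2 coding sequences were 93.9% identical. The coding sequence of vit-6 was 58.9% to 59.8% identical to the X-linked copies.

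Of the 6 genes, vit-6 alone had a summit in the conservative list, with 3 summits in its body and 0 in its promoter. Over all protein-coding genes, 12.5% had a conservative summit in the same window, 9.88% in the promoter and 3.36% in the gene body. A count of 1 gene in 6 is close to the share of all genes for the window. The shares given here are over genes of all lengths, and a longer body leaves more room for a summit. The share among genes as long as the vit genes was not tested, so this closeness is no like-for-like comparison. No vit gene had a thresholded summit in the list of replicate 1 or in that of replicate 2, where 9.08% and 8.61% of all genes had one. A further series-wide thresholded list, in which 12.8% of all genes had a summit, held 4 body summits of vit-6 and 1 of vit-2. The vit-6 call was thus present in both series-wide lists and absent from each replicate's own list.

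The strongest conservative region of vit-6 lay 342 bp into the gene, in coding exon sequence. Its sequence is shown because it had the highest signal of the vitellogenin regions, with the 21 bases around the summit in capitals, and 54.3% of its bases are G or C. The second sequence is the conservative region 4448 bp into the gene, 42.9% G or C.
vit-6 +342, chrIV:8261359-8261638, plus strand: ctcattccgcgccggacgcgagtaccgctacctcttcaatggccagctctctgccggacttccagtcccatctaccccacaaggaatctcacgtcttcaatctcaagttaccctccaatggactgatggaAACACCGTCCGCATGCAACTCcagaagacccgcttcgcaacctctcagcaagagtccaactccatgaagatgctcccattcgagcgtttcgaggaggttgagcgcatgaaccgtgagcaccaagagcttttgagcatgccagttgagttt
vit-6 +4448, chrIV:8265465-8265744, plus strand: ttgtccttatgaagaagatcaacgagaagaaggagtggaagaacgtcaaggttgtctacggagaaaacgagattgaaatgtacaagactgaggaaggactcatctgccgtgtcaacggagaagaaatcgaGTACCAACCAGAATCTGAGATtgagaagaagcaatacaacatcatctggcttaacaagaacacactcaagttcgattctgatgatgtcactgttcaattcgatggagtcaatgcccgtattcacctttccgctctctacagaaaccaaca

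The region at +342 had a signal of 67.7 in the list between replicates, at the 95.6 percentile, with an IDR of 0.0061. Replicate 1 placed its region at +332 with a signal of 35.5 (95.6 percentile), and replicate 2 at +355 with 30.4 (88.0 percentile). The summits of the replicates were 23 bp apart, and in both lists the region stood in the upper part of the ranking. Among the 2344 conservative regions it was weak, at the 21.6 percentile of their signals.

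An adjoining conservative region at +542 had the same IDR of 0.0061 but a signal of 8.16, at the 7.62 percentile. It overlapped the same replicate regions as +342, so it is not a separate measurement. The conservative region at +4448 had a signal of 25.3 (48.2 percentile) and an IDR of 0.0089. Replicate 1 had a region at +4402 with a signal of 24.3 (90.1 percentile), and replicate 2 one at +4623 with 35.5 (91.9 percentile). Both replicates ranked this end of the gene high, but their summits lay 221 bp apart.

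Just outside the threshold, vit-6 had a region at +1672 with a signal of 59.5 (94.4 percentile) and an IDR of 0.012. Replicate 1 gave 23.6 there (89.3 percentile) and replicate 2 gave 33.7 (90.9 percentile). The neighbouring region at +1886 had an IDR of 0.0119 and overlapped the same replicate regions. In the further series-wide list the IDR of these regions was 0.002 and 0.0019, and both were thresholded, while +4448 was not, with an IDR of 0.0723. The choice of list thus changed which vit-6 regions were called, and +342 and +542 were called in both.

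In the replicates' own lists, some vit-6 regions came close to the threshold, each in 1 replicate only. Replicate 1 had an IDR of 0.0104 at +2393 and of 0.0142 at +332. Replicate 2 had an IDR of 0.0126 at +4623. The overlapping regions of the other replicate were far from the threshold. Their IDR was 0.76 at +355 in replicate 2 and 0.379 at +4402 in replicate 1, and replicate 2 had no region overlapping that at +2393. For the region at +1672, the own-list IDR was 0.0993 in replicate 1 (+1745) and 0.756 in replicate 2 (+1675). No vit-6 promoter region was strong: those at −1850 and −1651 in the list between replicates were at the 20.6 and 7.57 percentiles, had no partner in either replicate and lay within the neighbouring gene K07H8.7. The conservative region at +342 also fell in the upstream window of K07H8.7, at −1495 from the 5′ end of that gene, so by position alone it could be counted to either gene.

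**Figure D1:**
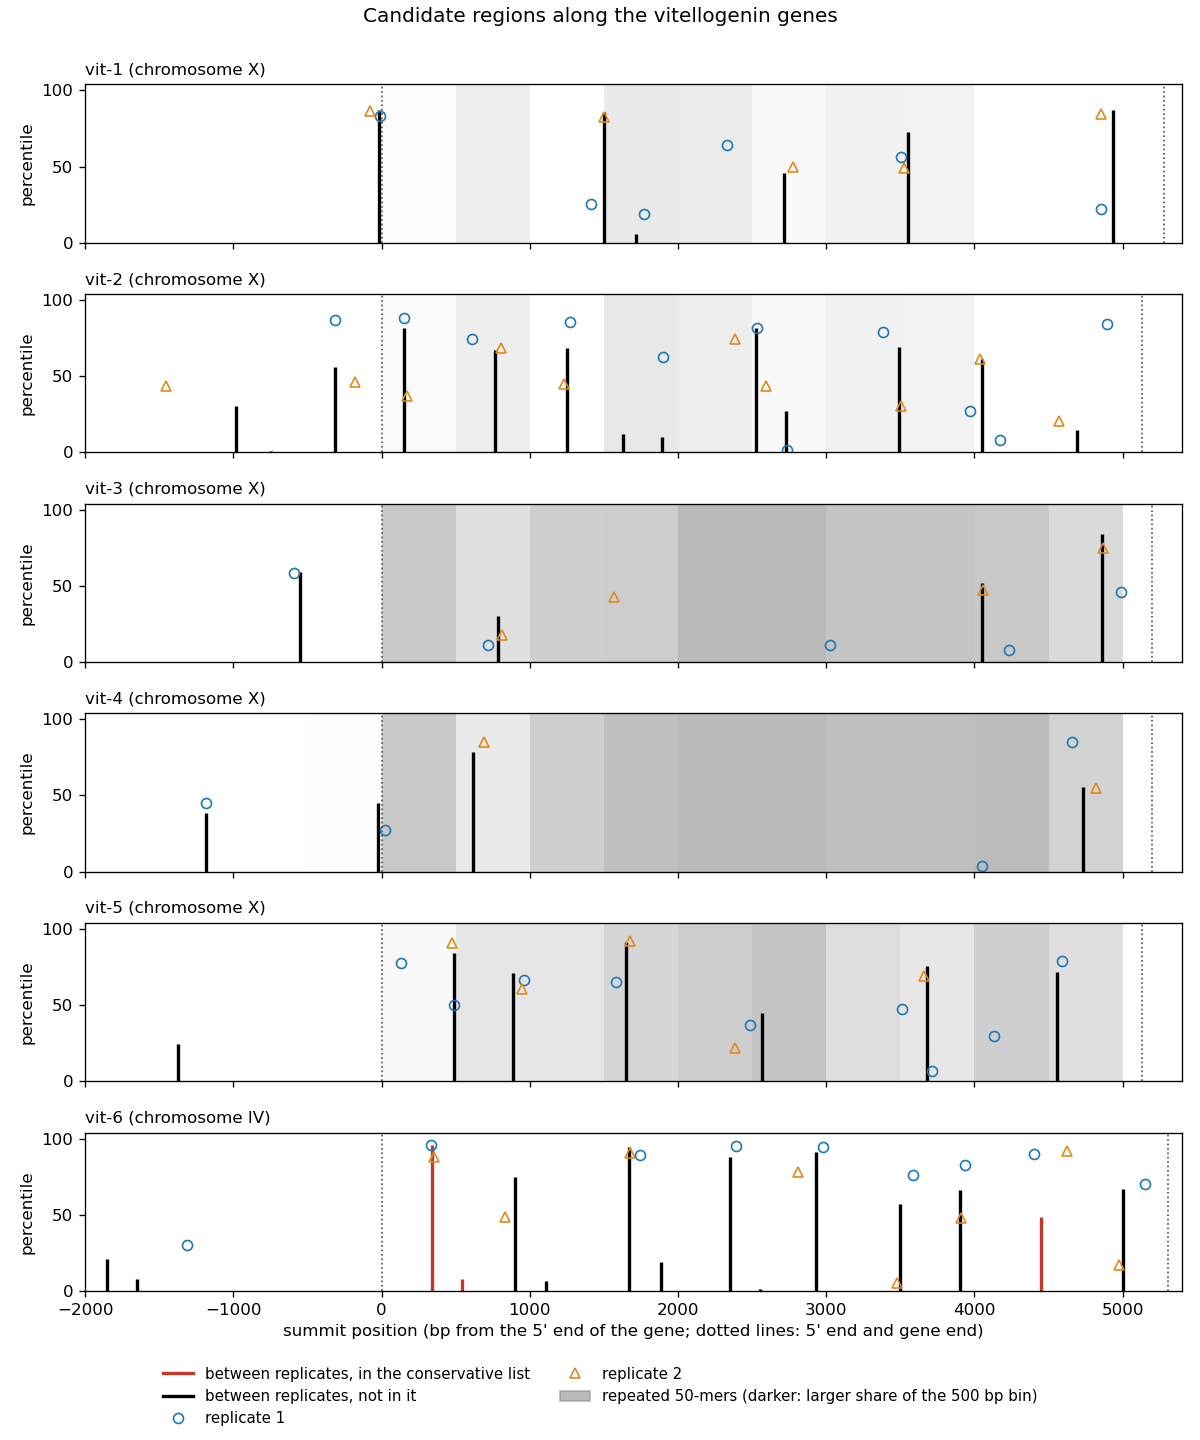
Candidate regions along each vitellogenin gene: the horizontal axis is the summit position in bp from the 5′ end and the vertical axis is the signal percentile within the list. Vertical lines are regions of the list between replicates (red where in the conservative list), circles and triangles are regions of replicates 1 and 2, dotted lines are the gene ends, and grey shading darkens with the share of repeated 50-base sequences in each 500 bp bin; the red lines are in vit-6, at +342, +542 and +4448.

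The vit-2 gene had no conservative summit, and was the X-linked copy called in the further series-wide list. Its body region at +2529 had a signal of 37.4 (81.4 percentile) and an IDR of 0.44 between replicates, but an IDR of 0.0076 in the further series-wide list. Replicate 1 gave 19.7 (81.7 percentile) at +2532 and replicate 2 gave 23.9 (74.7 percentile) at +2383. Both replicates ranked it fairly high, with summits 149 bp apart.

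The strongest vit-2 region by signal was at +152, with 37.8 (81.9 percentile). Replicate 1 gave 22.8 (88.2 percentile) and replicate 2 gave 16.8 (37.0 percentile), so the replicates disagreed on its rank. Upstream, a region at −316 had 27.4 (56.1 percentile), with 21.8 in replicate 1 (86.7 percentile) and 18.2 in replicate 2 (46.0 percentile). That promoter region, too, ranked higher in replicate 1 than in replicate 2.

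At vit-1 the strongest region straddled the start of the gene. It was centred 14 bp upstream of the 5′ end (chrX:7727735-7728014, intergenic at its summit), with a signal of 42.7 (87.5 percentile) and an IDR of 0.0413. Replicate 1 gave 20.3 (83.4 percentile) at −12 and replicate 2 gave 29.2 (86.5 percentile) at −81. Both replicates ranked it alike, and between replicates it was the only vit promoter region with an IDR of 0.05 or less. Its IDR was 0.345 in the further series-wide list, 0.549 in replicate 1's own list and 0.613 in that of replicate 2. It covers part of the vit-1 promoter printed above. The other strong vit-1 regions, at +1504 (85.6 percentile) and +4933 (87.0 percentile), were high in replicate 2, at 82.8 and 84.7 percentiles, and low in replicate 1, at 25.3 and 22.3.

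In vit-5 the strongest region was at +1647, with a signal of 49.1 (91.5 percentile) and an IDR of 0.228, or 0.0339 in the further series-wide list. Replicate 1 gave 15.8 (65.1 percentile) and replicate 2 gave 35.8 (92.0 percentile). The region at +487 showed the same order, with 13.7 in replicate 1 (50.4 percentile) and 33.7 in replicate 2 (90.9 percentile). Replicate 2 thus ranked both vit-5 regions higher than replicate 1 did. The vit-5 promoter held 1 weak candidate, at −1371 (24.2 percentile), which lay in the gene C04F6.9 and had no partner in either replicate.

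The adjacent copies vit-3 and vit-4 had the fewest candidates. The vit-3 region at +4858 had a signal of 39.3 (84.0 percentile), with 13.2 in replicate 1 (46.1 percentile) and 24.0 in replicate 2 (75.2 percentile). In replicate 2's own list that region had an IDR of 0.0421. The vit-4 region at +616 had 36.0 (78.9 percentile), with 28.2 in replicate 2 (85.0 percentile) and no overlapping region in replicate 1. At the other end of vit-4, +4729 had 27.2 (55.4 percentile), with 21.1 in replicate 1 (85.2 percentile) and 19.6 in replicate 2 (54.8 percentile). No region in either gene ranked above the 90 percentile in any of these lists.

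Each of the 6 genes had weaker candidates in both parts of its window in the list between replicates, where 53.1% of all genes had a candidate in the promoter and 54.2% in the gene body. The share for bodies is over genes of all lengths. Among genes of at least 3000 bp, 23.5% had no body candidate where repeated 50-base sequences made up 50% or less of the body. Where they made up more, 48.2% had none. Body candidates outnumbered promoter candidates, 39 to 10. The bodies are longer than the promoters, and per kb the vit bodies held 1.25 summits and the vit promoters 0.833, a difference of 0.415. Over all protein-coding genes the order was the other way, with 0.487 per kb of body and 0.511 per kb of promoter. In replicate 1 the vit values were 1.25 in bodies and 0.417 in promoters, and in replicate 2 they were 0.992 and 0.25. The difference was larger within each replicate, at 0.832 and 0.742, where fewer promoter candidates were listed. Bodies were denser than promoters in 5 of the genes between replicates and in all 6 in each replicate, with vit-4 between replicates as the exception.

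**Figure D2:**
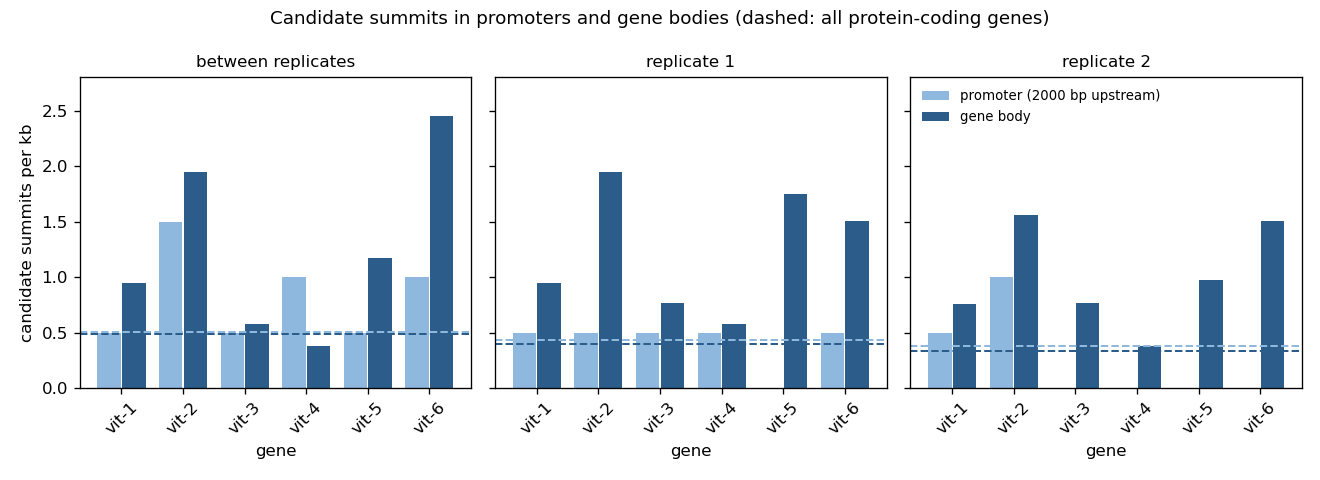
Candidate summits per kb for the promoter (light bars) and gene body (dark bars) of each vitellogenin gene in the list between replicates and in each replicate's ranked list, with dashed lines at the values over all protein-coding genes. In the list between replicates the vit-6 body reached 2.45 per kb and the vit-4 body 0.385 per kb.

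Overlap with the replicates' own regions differed between the parts. Of all 45103 candidates in the list between replicates, 39.4% overlapped a region in both replicates. Of the 39 vit body regions, 31 did (79.5%), on 29 distinct pairs of replicate regions, since neighbouring regions such as vit-6 +342 and +542 shared theirs. Some of these pairs also shared 1 member, such as vit-6 +2553 and +2934 with the replicate 2 region at +2809. The number of separate matches is therefore below 29. Another 3 body regions were matched in replicate 1 alone, 3 in replicate 2 alone and 2 in neither. Of the 10 promoter regions, 2 (20.0%) overlapped a region in both replicates, those at vit-1 −14 and vit-2 −316, while 3 were matched in replicate 1 alone and 5 in neither. Overlap by 1 bp or more is a looser measure than the IDR. The vit-2 region at +2731 was matched in both replicates at an IDR of 0.838, and the replicate summits at vit-6 +2553 lay 416 bp apart. Only 7 vit regions in this list had an IDR of 0.05 or less, all in the vit-6 body except vit-1 −14. Denser candidates also overlap more readily by position, and the part of density in these shares was not tested. The median percentile was 67.5 for body regions and 34.2 for promoter regions. Of the promoter regions, 6 had their summit inside another gene and 4 between genes, and the summit at vit-4 −26 lay in the noncoding RNA gene F59D8.3. Neighbouring coding genes shared 4 of the upstream regions: T27A10.5 that of vit-3, C04F6.9 that of vit-5 and K07H8.7 both of vit-6.

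Body summits were spread along the genes. In all, 36 of the 39 were in coding exons and 3 in introns, or 92.3% coding, against 93.1% of the bases. Upstream of the gene's midpoint lay 22 of them and downstream 17. The bodies were richer in G and C than most genes, from 44.97% in vit-4 to 48.5% in vit-2, against a median of 36.4% over all genes. Their 2000 bp upstream had 31.1% to 36.1% against a median of 34.9%, and vit-2 was the gene above it. The part of base composition in the difference between bodies and promoters was not tested.

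**Figure D3:**
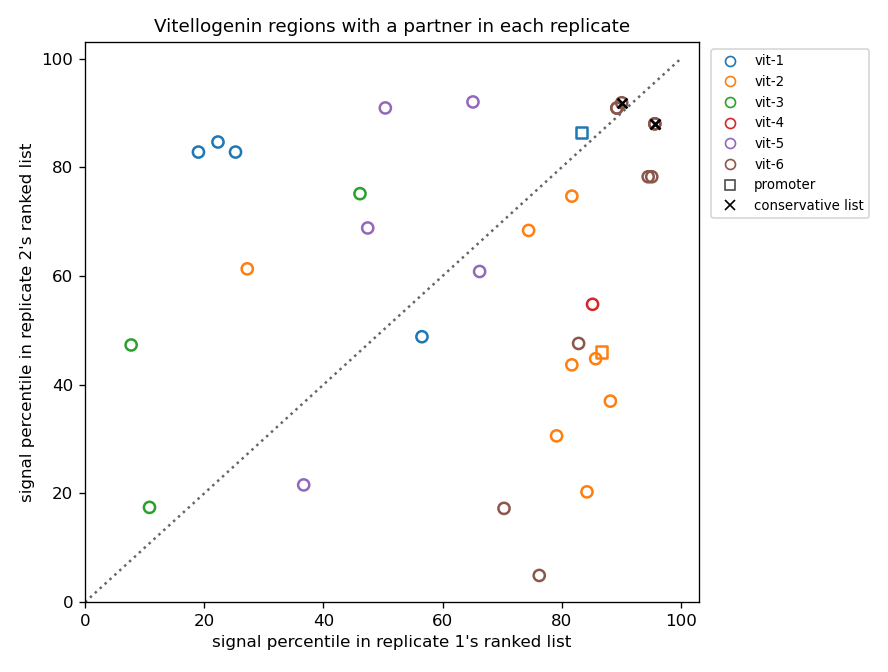
Signal percentile in replicate 1 (horizontal axis) and replicate 2 (vertical axis) for the 33 vitellogenin regions of the list between replicates that overlap a region in both; the dotted line marks equal ranks, squares are promoter regions, circles body regions, and crosses mark conservative regions. The conservative regions of vit-6 sit at 95.6 and 88.0 and at 90.1 and 91.9, while most vit-2 regions rank higher in replicate 1 and most vit-1 and vit-5 regions rank higher in replicate 2; some points coincide because regions share replicate partners.

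By density of body candidates, vit-6 led the long genes in the list between replicates. Among 6432 genes of at least 3000 bp, with a median of 0.425 summits per kb of body, none had a higher density than vit-6, at 2.45. Next came hrde-1 with 2.35 and paqr-1 with 2.32. For vit-2, at 1.95, 40 genes were higher, for vit-5 (1.17) 551, for vit-1 (0.947) 968, for vit-3 (0.578) 2415 and for vit-4 (0.385) 3386. The lead of vit-6 rested on how regions were split: with overlapping regions merged, its 13 body regions became 9, its density 1.70, and 13 genes were higher.

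Within the replicates vit-2 stood above vit-6. In replicate 1, 4 long genes were denser than vit-2, 12 than vit-5 and 51 than vit-6. In replicate 2, 25 were denser than vit-2, 31 than vit-6 and 254 than vit-5. The genes vit-2 and vit-6 were therefore near the top in every list, while vit-4 was exceeded by 1694 long genes in replicate 1 and 2370 in replicate 2. These ranks count weak candidates and say nothing of signal strength.

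**Figure D4:**
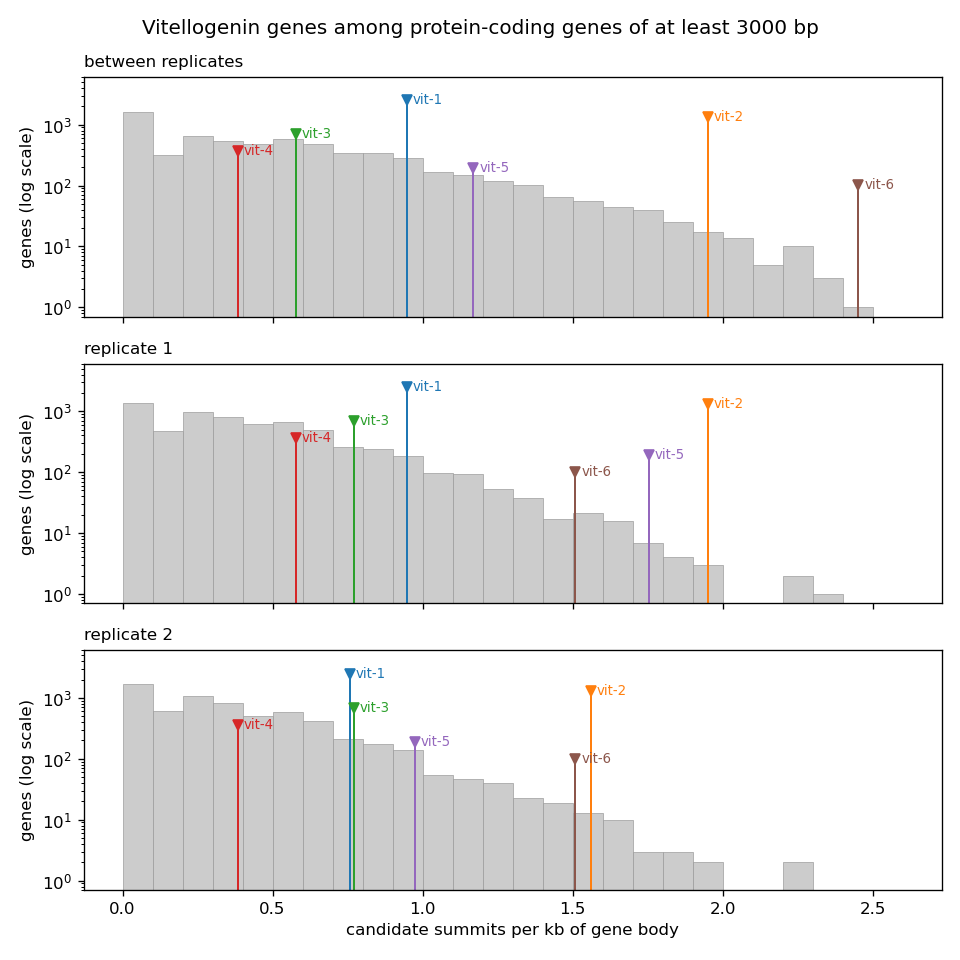
Histogram of candidate summits per kb of gene body over the 6432 protein-coding genes of at least 3000 bp (vertical axis: number of genes, log scale), for the list between replicates and each replicate's ranked list, with lines at the 6 vitellogenin genes. The vit-2 and vit-6 lines are in the right tail of every panel, and vit-4 lies among the bulk of the genes.

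Strength gave a more modest picture. The strongest candidate in the window was at the 95.6 percentile for vit-6, 91.5 for vit-5, 87.5 for vit-1, 84.0 for vit-3, 81.9 for vit-2 and 78.9 for vit-4, against a median of 79.1 over all genes with a candidate. In replicate 1 the order ran from 95.6 (vit-6) through 88.2 (vit-2), 85.2 (vit-4), 83.4 (vit-1) and 78.8 (vit-5) to 58.4 (vit-3). In replicate 2 it ran from 92.0 (vit-5) through 91.9 (vit-6), 86.5 (vit-1), 85.0 (vit-4) and 75.2 (vit-3) to 74.7 (vit-2). Only vit-6 was in the upper 2 places both times, and the X-linked copies changed places between replicates, so their order is not resolved. Each value is a maximum, which tends to rise with the number of candidates in a window. Between replicates the vit windows held from 4 (vit-3 and vit-4) to 15 (vit-6). The part of this in the standing of the vit genes, or of vit-6 among them, was not tested.

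The autosomal copy was compared with the X-linked copies over the whole window. Between replicates vit-6 had 2.05 candidate summits per kb, and the 5 X-linked copies had a mean of 0.948, from 0.556 to 1.82. In replicate 1 vit-6 had 1.23 against a mean of 0.976 (0.556 to 1.54), and in replicate 2 it had 1.10 against 0.725 (0.278 to 1.40). The groups overlapped in each replicate, where vit-2 was above vit-6, and the excess of vit-6 fell from 1.11 between replicates to 0.256 and 0.371. With overlapping regions merged it was 0.533, and vit-2, at 1.40, was then above vit-6, at 1.37, between replicates too. Over all genes, X-linked and autosomal windows had 0.488 and 0.501 candidates per kb. In the conservative list 9.78% of X-linked genes and 12.9% of autosomal genes had a summit. With 1 autosomal copy, chromosome and gene cannot be told apart.

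Repeated sequence also separated the copies. A 50-base sequence that occurs more than once in the genome began at 74.1% of positions in the vit-3 body, 78.6% in vit-4 and 49.1% in vit-5. The share was 12.8% in vit-1, 13.1% in vit-2 and 0 in vit-6, and at most 0.513% in any vit promoter. Over all genes the median was 0, and 3.29% of genes had more than 50% of their body repeated. Within the strongest regions of the list between replicates, the share was 63.6% at vit-5 +1647, 55.8% at vit-4 +616 and 26.8% at vit-3 +4858. It was 0 at vit-1 −14, vit-2 +152 and vit-6 +342. How the authors treated reads that fit more than 1 place is not given in the sources used here. Whether the signal of a repeated region belongs to that copy alone is therefore not known.

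Summits were sparser where the vit bodies were repeated. In the bodies of vit-3, vit-4 and vit-5, 5 of 22 bins of 500 bp with over 50% repeated positions held a summit of the list between replicates, against 6 of 8 of the other bins. Replicate 1 had summits in 9 of 22 and 5 of 8, and replicate 2 in 6 of 22 and 5 of 8. In vit-1, vit-2 and vit-6, 22 of 32 bins held a summit. Among genes of at least 3000 bp, the 83 with over 50% repeated bodies had a mean of 0.232 summits per kb, and the other 6349 had 0.497. Counted per kb of positions with a unique 50-base sequence, the windows held 0.907 (vit-1), 2.01 (vit-2), 1.201 (vit-3), 1.29 (vit-4), 1.51 (vit-5) and 2.05 (vit-6) summits. Summits within repeated sequence stayed in these counts, so the values of the repeated copies rise by construction, and no order is read from them. The part of repeated sequence in the difference between copies was not tested.

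Genes that act on the vitellogenins were read in the same windows. Of 16 regulators of vit transcription, 3 had a conservative summit (18.8%, against 12.5% of all genes). They were lin-29, a zinc finger factor of the larval-to-adult switch, at 96.4 in signal with a summit at +17634 (replicate 1 gave 30.2 and replicate 2 gave 59.9), zip-2, a bZIP factor, with 73.7 at +893 (31.9 and 43.3), and rict-1, the Rictor subunit of TORC2, with 70.6 at −511 (23.5 and 45.4). The rict-1 summit was within 500 bp of the 5′ end of gfm-1. The intestinal GATA factor gene elt-2 and the Meis-type gene unc-62 had no conservative summit.

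Of 11 genes for yolk assembly and uptake, 5 had a conservative summit (45.5%, against 12.5% of all genes). The yolk receptor gene rme-2 had one 71 bp upstream of its 5′ end, with a signal of 137 between replicates, 51.9 in replicate 1 and 81.3 in replicate 2. The vit-6 region at +342, by comparison, had 67.7 in the same list. The endosomal GTPase genes rab-7 (212 at −1513, near the 5′ end of mex-1), rab-5 (160 at −771) and rab-11.1 (67.9 at −696, near that of rpl-7) and the recycling gene rme-1 (86.1 at +5739) were the others. Of 15 other genes expressed in the intestine, 0 had a conservative summit, where 12.5% of all genes had one.

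A pair of gene families were read as points of reference for candidate density in the vit bodies. Transcription was not measured, so neither family is matched to the vit genes by it. Of 76 ribosomal protein genes, 56 had a conservative summit (73.7%, against 12.5% of all genes), with a median of 1.32 candidate summits per kb of body. Of 156 collagen genes, 10 did (6.41%), with a median of 0.717. The 6 vit genes had a median of 1.06 per kb, between those of the 2 families, but the genes differ in length, with medians of 753.5 bp (ribosomal protein), 1220 bp (collagen) and 5196 bp (vit). These gene lists are short or chosen by hand, and nothing particular to any of them is drawn from the counts.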

How the data were processed

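ChIP-seq of tagged RCOR-1 was measured in 2 replicates of 1 group. Per the deposited file notes, alignments were to ce11 and regions were ranked and thresholded by IDR. Which aligner and which peak caller made them is not given in the sources used here. Each signal value is the authors' deposited measure and its unit is undefined; whether the control enters it is not stated. Deposited ranked lists also give the −log10 of the IDR, converted here to the IDR. The conservative list held 2344 of the 2410 ranked regions past an IDR of 0.01, and the reason for the others is not stated.

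Summits were the authors' deposited offsets. They were assigned to genes of Ensembl release 115 and, with sequences from the RefSeq assembly of the same build, read in Python 3.11.15 with pandas 2.3.3 and numpy 2.4.6; identities are from edlib 1.3.9.post1 alignments. A replicate's value is that of its region overlapping by at least 1 bp, or of the strongest such region where several overlap. This choice can raise a replicate's value. At vit-2 +2731, replicate 1 is given by its region at +2532 (81.7 percentile), though it also had one at +2732 (1.68 percentile). Deposited summits lay within 1 bp of the region centre in 99.3% of ranked regions between replicates, 99.6% in replicate 1 and 99.4% in replicate 2. Summit positions, and the gaps between them, are therefore nearly always those of region centres. The text names all 6 vit genes, genes sharing a region with them, up to 5 genes per list with the strongest thresholded summit, and the 3 genes of at least 3000 bp with most body summits per kb; elt-2, unc-62 and the vit regions described singly were chosen after their values were seen. The assignment and 50-base search were checked on simulated data. Alternatives changed the list, the reach upstream, the threshold, the overlap rule and the replicates used. The members and gene lists were chosen with earlier results of these data known.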

Additional observations from a re-analysis of the deposited data

How the results depend on the processing

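The count of 1 vit gene with a summit in the window became 2 with the other series-wide list or an IDR of 0.05 or less, and 0 among thresholded regions above the median signal. The promoter count of 0 became 1 at an IDR of 0.05 or less, through vit-1. The body count of 1 became 2 with the other series-wide list and 0 above the median signal. With either replicate left out, the window and body counts were 0. The excess of body over promoter density, 0.415 summits per kb, was 0.697 with the other list, 0.249 with 1000 or 500 bp upstream, 0.511 by region overlap and 0.569 with 500 bp past the gene end; without a replicate it ranged from 0.742 to 0.832. The excess of vit-6 over the X-linked mean, 1.11, was 1.22 with 500 bp upstream and 1.19 by region overlap, and 0.256 to 0.371 without a replicate. Merging overlapping regions gave 0.533 and counting per kb of unique sequence 0.669, a scale that raises repeated copies by construction; both were added after seeing the data. The excess in percentile, 10.8, was 9.21 to 16.8 without a replicate and 6.56 with 500 bp past the gene end. The cause of these shifts was not tested, and none of these excesses changed sign. The order of single genes did change. In window density vit-2 was above vit-6 in each replicate and with regions merged, and vit-5 (1.26) was above vit-6 (1.23) in replicate 1. In replicate 2 the strongest vit-5 region, at the 92.0 percentile, was above that of vit-6, at 91.9. Depth is unknown, so a vit region left out of a list is not shown to be unbound. No paired analysis was possible because there was 1 group.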
